A study of Mus musculus with 4 samples.

Results

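Lhx6 interneurons of the medial ganglionic eminence lineage were selected from single-cell libraries of the mouse rostral neocortex at E15.5, and they were 561 of the 28672 barcodes kept, or 1.96%. A barcode was kept with at least 1000 UMIs (unique molecular identifiers, each 1 captured transcript), 500 or more detected genes and no more than 10% mitochondrial UMIs. It counted as an Lhx6 interneuron when at least 2 of Gad1, Gad2, Dlx1 and Dlx6os1 were detected, Lhx6 had at least 1 UMI, Neurod6 had at most 1, and Krt8, Cytl1 and Lbhd2 together had at most 1. The i4F-Nes embryos had the genotype Nestin-Cre;i4F;ROSA-STOP-rtTA. In them, Cre under Nestin control, which is active in neural progenitors, switches on the rtTA transactivator, and doxycycline then induces the cassette of 4 Yamanaka factors, Pou5f1, Sox2, Klf4 and Myc. Littermate CTR embryos had the genotype i4F;ROSA-STOP-rtTA, so they carried the cassette and the silent transactivator but no Cre. Pregnant females of both groups drank 0.2 mg/ml doxycycline for 4 days, E10.5 to E14.5. Each group had 2 libraries, and values are given for replicates 1 and 2 in that order. The labels do not state the number of embryos per library or whether libraries came from separate litters, so the p-values reflect only how these libraries vary, and that variation may be technical.

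Cortical inhibitory neurons are not born in the cortex. They arise in the ganglionic eminences of the ventral forebrain and migrate tangentially into the cortical plate, where they make GABA, the main inhibitory transmitter. Cells of the medial eminence switch on Lhx6, a LIM homeodomain transcription factor that acts downstream of Nkx2-1, and later become somatostatin and parvalbumin interneurons, whereas cells of the caudal eminence express Adarb2, Prox1 and Nr2f2 instead.

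The 250 bases before the transcription start are shown for the gene that defines the lineage (Lhx6), for its main peptide gene (Sst, somatostatin) and for a GABAergic gene of the selection (Dlx6os1, an antisense RNA of the Dlx5 and Dlx6 locus), from RefSeq on GRCm38.p6, 5′ to 3′ on the gene's strand. The window of Lhx6 lay at chr2:36105409-36105658, next to the gene on the minus strand (ENSMUSG00000026890, chromosome 2, 36081953 to 36105408). The window of Sst lay at chr16:23890845-23891094 and that of Dlx6os1 at chr6:6869534-6869783, both on the minus strand. Windows end at a RefSeq start, of which the table lists 3 for Lhx6, 1 for Sst and 2 for Dlx6os1. In the GENCODE annotation of the same build the Sst gene (chromosome 16, 23889573 to 23890958) reaches into its window and the Dlx6os1 gene (chromosome 6, 6820189 to 6871592) contains its window. Capitals mark the cyclic AMP response element TGACGTCA and the homeodomain core TAATTA, each the same on both strands.
Lhx6: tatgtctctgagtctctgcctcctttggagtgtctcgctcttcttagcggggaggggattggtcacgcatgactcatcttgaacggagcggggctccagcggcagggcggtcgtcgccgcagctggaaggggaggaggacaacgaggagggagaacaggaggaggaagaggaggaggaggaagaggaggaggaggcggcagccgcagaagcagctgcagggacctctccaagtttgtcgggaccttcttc
Sst: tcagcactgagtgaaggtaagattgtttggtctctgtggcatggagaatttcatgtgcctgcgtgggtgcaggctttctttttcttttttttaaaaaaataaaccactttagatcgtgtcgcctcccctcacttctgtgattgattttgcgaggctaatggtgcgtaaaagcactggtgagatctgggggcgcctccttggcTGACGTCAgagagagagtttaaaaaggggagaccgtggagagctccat
Dlx6os1: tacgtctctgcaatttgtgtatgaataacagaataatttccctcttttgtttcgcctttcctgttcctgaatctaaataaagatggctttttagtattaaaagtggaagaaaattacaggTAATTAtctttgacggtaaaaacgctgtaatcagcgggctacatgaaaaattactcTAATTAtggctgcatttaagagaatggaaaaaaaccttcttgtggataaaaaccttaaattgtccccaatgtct
The Sst window held 1 TGACGTCA, starting at position -48 from the start site, and 1.55% of the 32851 RefSeq promoter windows of this length held that motif. The Dlx6os1 window held 2 TAATTA, at positions -130 and -74, and 4.84% of the windows held at least 1. Neither motif was found in the Lhx6 window. These are letter matches and describe the windows, not binding.

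The libraries held 9646 and 9457 barcodes with 153706503 and 94052724 UMIs in i4F-Nes, and 7942 and 8210 barcodes with 113444320 and 96942225 UMIs in CTR. After filtering, 8125 and 6931 barcodes were kept in i4F-Nes and 6456 and 7160 in CTR. Of these, 850 and 639 in i4F-Nes and 1 and 0 in CTR exceeded the limit on Krt8, Cytl1 and Lbhd2, genes of a cell population seen in i4F-Nes libraries. Xist, which silences the X chromosome in females, stood in Lhx6 interneurons at 1607 and 1707 CPM in i4F-Nes and 0 and 1938 CPM in CTR (CPM: UMIs of a gene per 1000000 UMIs of the class in that library); Ddx3y, a gene of the Y chromosome, at 0 and 0 CPM in i4F-Nes and 52.4 and 0 CPM in CTR. CTR replicate 1 thus differed from the other 3 libraries in sex. Pairs of libraries shared 11 to 21 kept barcodes, and no Lhx6 interneuron barcode was shared.

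The Lhx6 interneurons numbered 100 and 63 in i4F-Nes libraries and 124 and 274 in CTR libraries, with 894121 and 505454 UMIs in i4F-Nes and 954050 and 1998268 UMIs in CTR. Their median depth was 7666.5 and 7616 UMIs per cell in i4F-Nes and 6747 and 7223 in CTR, so depth differed little between libraries. Lhx6 had exactly 1 UMI in 21 and 15 of these cells in i4F-Nes and in 37 and 72 in CTR, and its median was 3 and 3 UMIs in i4F-Nes and 2 and 3 in CTR. All 4 GABAergic genes were detected in 49 and 25 cells in i4F-Nes and in 50 and 108 in CTR. Just outside the rule, 3 and 1 barcodes in i4F-Nes and 4 and 5 in CTR met every other criterion but had 2 Neurod6 UMIs, and 16 and 7 in i4F-Nes and 28 and 54 in CTR had more. The barcodes with 2 or more had medians of 18411 and 21617.5 UMIs in i4F-Nes and 24356 and 20821 in CTR, deeper than the interneurons kept. The limit on Krt8, Cytl1 and Lbhd2 set aside a further 1 and 2 barcodes in i4F-Nes and 0 and 0 in CTR. Sums over Lhx6 interneurons were set beside sums over 2 reference classes: projection neurons (20155 barcodes with at least 2 Neurod6 UMIs, none of the 4 GABAergic genes and the same limit on Krt8, Cytl1 and Lbhd2), and other GABAergic cells (252 barcodes that met the rule except that Lhx6 was at 0 UMIs).

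Lhx6 interneurons made up a smaller share of both i4F-Nes libraries than of either CTR library, but with 2 libraries per group the exact permutation test cannot reach the threshold. Their share of kept barcodes was 1.23% (exact binomial 95% interval 1.00% to 1.49%) and 0.909% (0.699% to 1.16%) in i4F-Nes, and 1.92% (1.60% to 2.29%) and 3.83% (3.39% to 4.30%) in CTR. The groups did not overlap, CTR replicate 2 stood apart from the other 3 libraries, and CTR replicate 1 lay between it and i4F-Nes. The intervals cover counting error only. The mean was 1.07% ± 0.228 in i4F-Nes and 2.87% ± 1.35 in CTR (SD, n = 2 each), a ratio of 0.372, and the exact two-sided permutation test gave p = 0.333, the smallest that the 6 splits of 2 against 2 libraries allow (0.5 after Benjamini-Hochberg adjustment over 3 measures). Because i4F-Nes libraries contain the additional Krt8, Cytl1 and Lbhd2 population, the numbers were also set against projection neurons. There were 1.75 and 1.58 Lhx6 interneurons per 100 projection neurons in i4F-Nes, and 2.46 and 5.06 in CTR. The ratio of the means was 0.443, again without overlap and at the smallest possible exact permutation p of 0.333. CTR replicate 2 held the highest value on both measures: without it the ratios were 0.557 and 0.677, and without CTR replicate 1 they were 0.280 and 0.329.

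The other GABAergic cells were also less frequent in both i4F-Nes libraries, at 0.345% and 0.635% of kept barcodes in i4F-Nes and 1.15% and 1.48% in CTR. As a part of all GABAergic cells, Lhx6 interneurons made up 78.1% and 58.9% in i4F-Nes and 62.6% and 72.1% in CTR. Here the groups overlapped fully, the ratio of the means was 1.02, and the exact permutation p was 1. This ratio lay on either side of 1, from 0.959 to 1.10 over the alternative cell rules and from 0.874 to 1.16 with 1 library left out, so no direction is given.

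**Figure D1:**
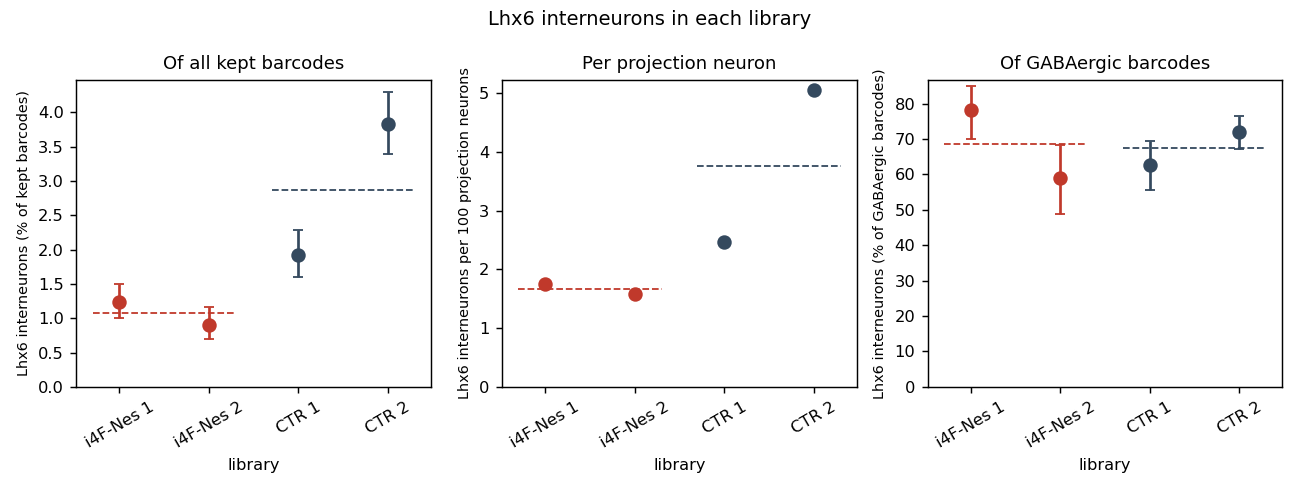
Lhx6 interneurons in each library as a percentage of kept barcodes (left), per 100 projection neurons (middle) and as a percentage of GABAergic barcodes (right), with i4F-Nes in red and CTR in dark grey. Points are libraries, bars in the outer panels are exact binomial 95% intervals and dashed lines are group means: both i4F-Nes points lie under both CTR points in the first 2 panels (1.23% and 0.909% in i4F-Nes, 1.92% and 3.83% in CTR) and the groups overlap in the third.

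The label was checked against markers that the rule did not use. Erbb4, the neuregulin receptor that guides tangentially migrating interneurons, was measured at 9426 and 7840.5 CPM in i4F-Nes and 11722 and 8738 CPM in CTR, and at 5.53 and 9.76 CPM in i4F-Nes and 8.15 and 8.22 CPM in CTR in projection neurons. Nxph1, a secreted ligand of neurexins, was measured at 4013 and 3929 CPM in i4F-Nes and 4860.3 and 3331 CPM in CTR, and at 7.14 and 17.1 CPM in i4F-Nes and 3.27 and 3.35 CPM in CTR in projection neurons. Sox6, a transcription factor downstream of Lhx6, was at 1457 and 1411 CPM in i4F-Nes and 1697 and 1249 CPM in CTR, and the medial lineage factor Maf at 437 and 514 CPM in i4F-Nes and 408 and 661 CPM in CTR. All 4 genes were present in every library of both groups, and in GABAergic cells without an Lhx6 UMI as well. There Erbb4 was at 9728 and 7976 CPM in i4F-Nes and 12134 and 11798 CPM in CTR, and Sox6 at 1254 and 1182 CPM in i4F-Nes and 884 and 995 CPM in CTR. Maf was lower there, at 293 and 168 CPM in i4F-Nes and 217 and 344 CPM in CTR. Of the rule's own genes, Lhx6 and Dlx1 were at similar levels in the groups. Gad2 and Dlx6os1 were lower in both i4F-Nes libraries than in either CTR library. Dlx6os1 was at 536 and 497 CPM in i4F-Nes and 700.2 and 602 CPM in CTR. Lhx6 was measured at 379 and 389.7 CPM in i4F-Nes and 365 and 415 CPM in CTR, Gad2, which makes GABA, at 696 and 613 CPM in i4F-Nes and 747 and 702 CPM in CTR, and Dlx1, a homeodomain factor of ventral forebrain progenitors, at 161 and 160.3 CPM in i4F-Nes and 153 and 165 CPM in CTR. Nkx2-1, which cortical interneurons of this lineage switch off as they leave the eminence, had 0 and 1 UMIs in i4F-Nes and 0 and 3 UMIs in CTR over all the cells. Pvalb, the parvalbumin gene of the mature cells, had none in any library.

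Several markers of other cell types were low. Prox1 had no UMI in any Lhx6 interneuron. In the cells thinned to 5000 UMIs described with the detection rates, a count of 0 allows a share of cells with a Prox1 UMI of up to 3.66% and 6.67% in i4F-Nes and 3.57% and 1.56% in CTR (3 counts per library), which limits detection and not expression. Adarb2 had a UMI in 1 and 1 cells in i4F-Nes and in 3 and 9 in CTR, and Nr2f2 was at 22.4 and 9.89 CPM in i4F-Nes and 34.6 and 33.5 CPM in CTR. Of 22 listed genes of the lateral eminence and striatum 6 were at 0 in all 4 sums, among them Isl1, Drd2, Adora2a and Six3. The others were not absent, and the list summed to 852 and 886 CPM in i4F-Nes and 913 and 855 CPM in CTR. In the other GABAergic cells it summed to 973 and 1612 CPM in i4F-Nes and 1426 and 1723 CPM in CTR. Bcl11b, Meis2, Foxp1 and Tshz1 had the highest levels. Meis2 had a UMI in 16 and 19 Lhx6 interneurons in i4F-Nes and 15 and 39 in CTR. Of 21 projection neuron markers none was at 0 in every sum, and their summed level was 2992 and 3262 CPM in i4F-Nes and 3171 and 2975 CPM in CTR, against 12299 and 10802 CPM in i4F-Nes and 11506 and 11194 CPM in CTR in projection neurons. Much of this came from Mef2c and Cux2, which interneurons also express: Mef2c was at 1210.1 and 1100.0 CPM in i4F-Nes and 1264 and 1211 CPM in CTR and Cux2 at 804 and 716 CPM in i4F-Nes and 999.9 and 804 CPM in CTR. Of the glutamatergic genes, Neurod2 was at 19 and 21.8 CPM in i4F-Nes and 18.9 and 10.01 CPM in CTR and the vesicular glutamate transporter Slc17a6 at 1.12 and 0 CPM in i4F-Nes and 1.05 and 0.500 CPM in CTR, compared with 94.1 and 96 CPM in i4F-Nes and 87.1 and 90.8 CPM in CTR in projection neurons. The library i4F-Nes replicate 2 stood apart in Unc5d, a netrin receptor gene of cortical neurons singled out after its values were seen, at 77.2 and 443 CPM in i4F-Nes and 70.2 and 101 CPM in CTR. Its part in other genes high in that library, such as Kcnq5 and Cntnap2, was not tested. Markers of microglia, vessels, oligodendrocyte precursors and blood summed to 47 and 33.6 CPM in i4F-Nes and 37.7 and 24 CPM in CTR, with 11 of 23 at 0 in every sum.

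The genes with the highest ratio to projection neurons in every library were Erbb4, Nxph1, Gad2, Nrxn3, Dlx6os1, Sox2ot, Dlgap2, Rbms3, Maf and Lhx6. They were chosen for that ratio, and Gad2, Dlx6os1 and Lhx6 belong to the rule, so they describe the cells and are not tested. Nrxn3, a presynaptic adhesion molecule, was at 15018 and 12968 CPM in i4F-Nes and 19084 and 14459.5 CPM in CTR, and at 62.1 and 120.4 CPM in i4F-Nes and 23.1 and 22.2 CPM in CTR in projection neurons. The RNA-binding protein gene Rbms3 was at 2301 and 1955 CPM in i4F-Nes and 2358 and 1707 CPM in CTR, and at 18.8 and 21.2 CPM in i4F-Nes and 14.7 and 13.4 CPM in CTR in projection neurons. Lowest relative to projection neurons were Neurod6, 9130024F11Rik, Zbtb18, Pou3f1, Nfix, Bhlhe22, Hs6st2, Neurod2, Slc17a6 and Nrn1, many of them transcription factors of glutamatergic neurons. Nfix, for example, was at 47 and 33.6 CPM in i4F-Nes and 25.2 and 33 CPM in CTR, and at 941 and 747 CPM in i4F-Nes and 1042 and 936 CPM in CTR in projection neurons. Apart from Neurod6, none of these was in the rule.

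Against the other GABAergic cells, which share the GABAergic program, the contrast was narrower. Adarb2 was at 1.12 and 1.98 CPM in i4F-Nes and 5.24 and 11.5 CPM in CTR in Lhx6 interneurons, and at 2908 and 2501 CPM in i4F-Nes and 4102 and 3768 CPM in CTR in the other GABAergic cells. Nr3c2, Sorcs3, Sp8, Wnt5a, St18, Prox1, Nr2f2, Pbx3 and Synpr were the next lowest. Sp8, a zinc finger factor of the dorsal lateral and caudal eminences, was at 0 and 1.98 CPM in i4F-Nes and 1.05 and 0.500 CPM in CTR, and at 81.1 and 51.6 CPM in i4F-Nes and 46.8 and 41.2 CPM in CTR in the other cells. Among those on the higher side were Lhx6 itself, the peptide genes Sst, Npy and Cck, the matrix protein gene Thbs1, Rpp25 and the mitotic genes Ube2c, Cks2 and Cenpf. For Ube2c 1 cell per library held 91.1% and 100% of the UMIs in i4F-Nes and 87.5% and 66.3% in CTR. For Cenpf it held 94.7% and 92.9% in i4F-Nes and 96% and 78.9% in CTR. Cells with at least 3 of 8 mitotic genes were 2.00% and 1.59% of Lhx6 interneurons in i4F-Nes and 1.61% and 1.09% in CTR. Of the other GABAergic cells they were 0% and 2.27% in i4F-Nes and 1.35% and 1.89% in CTR, so Lhx6 interneurons were not higher in every library. Npy was at 347 and 267 CPM in i4F-Nes and 132 and 265 CPM in CTR, and at 18.7 and 25.8 CPM in i4F-Nes and 49.8 and 26.8 CPM in CTR in the other GABAergic cells. The cells without an Lhx6 UMI were shallower, with medians of 4765.5 and 3596.5 UMIs in i4F-Nes and 3984 and 4049 in CTR, and they still held Sst at 156 and 150.4 CPM in i4F-Nes and 108 and 224 CPM in CTR, a measured limit of a class defined by 0 UMIs.

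**Figure D2:**
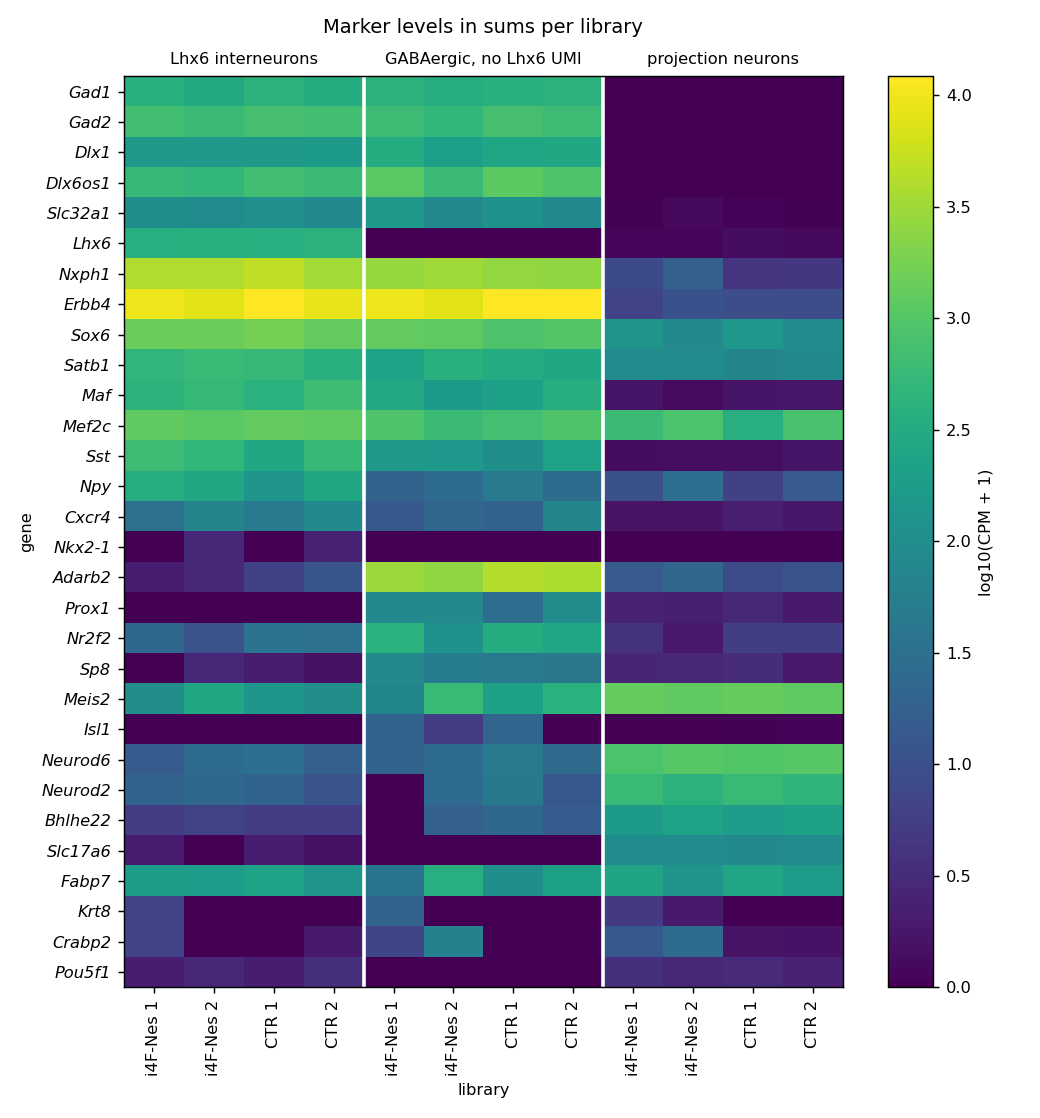
Levels of marker genes (rows) in sums per library (columns) over Lhx6 interneurons, other GABAergic cells without an Lhx6 UMI and projection neurons, as log10 of CPM + 1, with i4F-Nes libraries left of CTR libraries in each block. Erbb4, Nxph1 and Sox6 are high in both GABAergic classes, Sst and Npy are highest in Lhx6 interneurons, Adarb2 stands out in the other GABAergic cells, and Neurod6, Neurod2 and Slc17a6 in projection neurons.

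Among themselves the Lhx6 interneurons differed in their peptide genes, which some of the cells expressed and others did not. Cells were thinned to 5000 UMIs each to compare detection at equal depth, which kept 82 and 45 cells in i4F-Nes and 84 and 192 in CTR and left out 18 and 18 in i4F-Nes and 40 and 82 in CTR. Erbb4 and Nxph1 were then detected in nearly every cell, Erbb4 in 98.8% and 97.8% of them in i4F-Nes and 100% and 99.5% in CTR and Nxph1 in 98.8% and 97.8% of them in i4F-Nes and 98.8% and 96.9% in CTR. Sst was detected in 35.4% and 35.6% of them in i4F-Nes and 33.3% and 35.9% in CTR, and in 0.159% to 0.243% of projection neurons thinned the same way. Npy was detected in 28% and 35.6% of them in i4F-Nes and 20.2% and 31.2% in CTR, and in 1.56% to 3.3% of projection neurons. The shares without thinning were 41% and 30.2% in i4F-Nes and 29% and 31% in CTR for Sst. The share of Sst cells was within 33.3% to 35.9% in the 4 libraries, and each library's interval covered the others' values.

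Npy, which adult somatostatin interneurons often co-express, was concentrated in the cells with Sst. It was detected in 62.1% and 68.8% of thinned cells with an Sst UMI in i4F-Nes and 39.3% and 49.3% in CTR. In cells without an Sst UMI the share was 9.43% and 17.2% in i4F-Nes and 10.7% and 21.1% in CTR. The share was higher beside Sst in 4 of 4 libraries, with cells of 1 library sharing their source and no test made over cells. Sox6 and Mef2c were detected in most cells with and without Sst. The cell with the most Sst UMIs held 10.1% to 17.8% of the Sst UMIs of its library.

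Detection of the lineage and migration genes varied between libraries. Maf was detected in 79.3% and 77.8% of them in i4F-Nes and 88.1% and 92.2% in CTR, and the chromatin organiser Satb1 in 89% and 84.4% of them in i4F-Nes and 83.3% and 69.8% in CTR. After thinning the 2 groups did not overlap for these genes, with Maf less often and Satb1 more often detected in both i4F-Nes libraries. Without thinning the groups overlapped for both. The unthinned shares were 86% and 79.4% in i4F-Nes and 85.5% and 88.3% in CTR for Maf. For Satb1 they were 91% and 76.2% in i4F-Nes and 87.1% and 75.5% in CTR. The difference was not tested for these shares. Cxcr4, the chemokine receptor that keeps interneurons in their migratory streams, was detected in 14.6% and 33.3% of them in i4F-Nes and 21.4% and 38.5% in CTR. It was higher in replicate 2 than in replicate 1 in each group, so its groups overlapped. Ackr3, the atypical receptor for the same chemokine, was detected in 70.7% and 64.4% of them in i4F-Nes and 64.3% and 74.5% in CTR, again with overlap. Cells with at least 3 of 8 mitotic genes were rare. They were 2 of 100 and 1 of 63 cells in i4F-Nes and 2 of 124 and 3 of 274 in CTR. Mki67 by itself was detected in 3.66% and 13.3% of thinned cells in i4F-Nes and 2.38% and 3.1% in CTR.

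**Figure D3:**
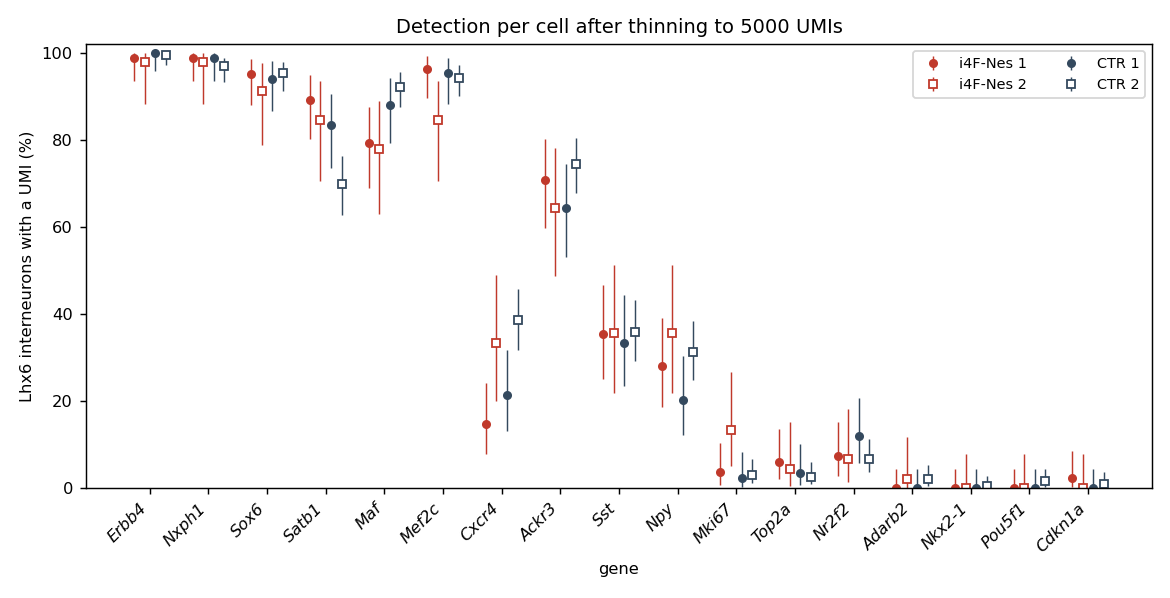
Percentage of Lhx6 interneurons with at least 1 UMI of each gene after thinning to 5000 UMIs per cell, per library, with exact binomial 95% intervals (i4F-Nes red, CTR dark grey, replicate 1 filled circles, replicate 2 open squares). Sst lies between 33.3% and 35.9% in the 4 libraries, Cxcr4 is higher in replicate 2 of each group, and Adarb2, Nkx2-1 and Pou5f1 are near 0.

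No gene passed the threshold between i4F-Nes and CTR in Lhx6 interneurons. In edgeR's quasi-likelihood test on UMI counts summed per library, 0 of 9099 tested genes (0%) had a Benjamini-Hochberg adjusted p under 0.05, in either direction. At an unadjusted p under 0.05 there were 243 genes higher in i4F-Nes (2.67%) and 84 lower (0.923%), 327 in all (3.59%). DESeq2 called 2 genes, Mgat4c and Lrfn5. The CPM of the 2 groups did not overlap for 1436 genes higher (15.8%) and 1130 lower (12.4%) in i4F-Nes. The count of calls depended on single libraries: edgeR's test called 79 genes without i4F-Nes replicate 1, 3 without i4F-Nes replicate 2, 31 without CTR replicate 1 and 32 without CTR replicate 2, in each case assuming for the single library left in its group the spread of the other group. The median log2 fold change over all tested genes was -0.01.

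The genes named next had the lowest p in each direction among those with a mean of at least 10 CPM, and they are values, not calls. Lrfn5, a synaptic adhesion molecule, was at 259 and 315 CPM in i4F-Nes, against 89.1 and 116 CPM in CTR. The log2 fold change was 1.44 ± 0.25 (± SE, 2 libraries per group, edgeR's quasi-likelihood test, Benjamini-Hochberg adjusted p = 0.23). Here and below the SE was derived from the test's F statistic, with spread estimates moderated across genes. It is not the measured spread between the libraries of a group. Both i4F-Nes libraries were above both CTR libraries, and the UMIs came from 29 and 29 cells in i4F-Nes and 28 and 61 in CTR. Without the 1 cell with the most UMIs in each library it was measured at 221 and 285 CPM in i4F-Nes and 76.9 and 104 CPM in CTR, so no single cell set the order. Projection neurons held more of it, 553 and 849 CPM in i4F-Nes and 309.5 and 708 CPM in CTR. Cntnap5a, a neurexin family protein, was at 80.5 and 111 CPM in i4F-Nes, against 19.9 and 33.5 CPM in CTR. The log2 fold change was 1.71 ± 0.32. The Cntnap5a UMIs came from 8 and 14 cells in i4F-Nes and 12 and 26 in CTR. In i4F-Nes replicate 1 a single cell held 51.4% of them. Without the top cell of each library Cntnap5a was measured at 40.1 and 90.5 CPM in i4F-Nes and 16.9 and 28.1 CPM in CTR. Schip1, a cytoskeletal partner of schwannomin, was at 185 and 209.7 CPM in i4F-Nes, against 96.4 and 73.1 CPM in CTR, and the log2 fold change was 1.21 ± 0.24. These libraries too were separated by group. Over the alternatives in edgeR and DESeq2 the adjusted p lay between 1.30e-04 and 0.23 for Lrfn5, between 3.96e-05 and 0.23 for Cntnap5a, and between 0.00625 and 0.368 for Schip1.

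Few cells also carried the sums of the other 2 genes on the higher side. Mgat4c, a glycosyltransferase, was at 55.9 and 144 CPM in i4F-Nes, against 14.7 and 19.5 CPM in CTR, and the log2 fold change was 2.41 ± 0.43, from 5 and 9 cells in i4F-Nes and 6 and 13 in CTR. Without the top cell of each library it was measured at 28.6 and 62.3 CPM in i4F-Nes and 9.5 and 13.1 CPM in CTR. Kif11, a mitotic kinesin, was at 35.8 and 35.6 CPM in i4F-Nes, against 11.5 and 7.01 CPM in CTR, and the log2 fold change was 1.99 ± 0.39, from 5 and 5 cells in i4F-Nes and 3 and 3 in CTR. Without the top cell of each library it was measured at 14 and 8.34 CPM in i4F-Nes and 2.17 and 3.57 CPM in CTR. The order of the groups held for both genes, at lower levels. The alternatives moved the adjusted p of Mgat4c between 3.70e-12 and 0.23 and that of Kif11 between 0.00636 and 0.796 in edgeR and DESeq2.

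On the lower side, Calb1, the calcium-binding protein calbindin that marks migrating interneurons of this lineage, was at 7.83 and 15.8 CPM in i4F-Nes, against 26.2 and 36.5 CPM in CTR. Its log2 fold change was -1.58 ± 0.43 (± SE from edgeR's F statistic, adjusted p = 0.672 in edgeR's quasi-likelihood test). It was detected in 4 of 100 and 4 of 63 cells in i4F-Nes and 9 of 124 and 27 of 274 in CTR. The groups did not overlap in CPM. In CTR replicate 1 a single cell held 56% of the Calb1 UMIs. Without the top cell of each library Calb1 was measured at 4.51 and 10.1 CPM in i4F-Nes and 11.8 and 32.7 CPM in CTR. Epb41l4a, a band 4.1 family gene, was at 178 and 117 CPM in i4F-Nes, against 296 and 232 CPM in CTR, and the log2 fold change was -0.84 ± 0.25, from 62 and 31 cells in i4F-Nes and 82 and 177 in CTR. The secreted BMP regulator Bmper was at 32.4 and 15.8 CPM in i4F-Nes, against 50.3 and 64.1 CPM in CTR, and the log2 fold change was -1.21 ± 0.34. Fbxo16 was at 5.59 and 5.94 CPM in i4F-Nes, against 16.8 and 17.5 CPM in CTR, -1.61 ± 0.52 on the log2 scale, and Cdca7, a chromatin protein of cycling cells, at 24.6 and 23.7 CPM in i4F-Nes, against 40.9 and 52 CPM in CTR, -0.99 ± 0.32. None of these 5 passed in edgeR or DESeq2 under any of the alternatives run, with adjusted p from 0.0644 up (Benjamini-Hochberg).

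**Figure D4:**
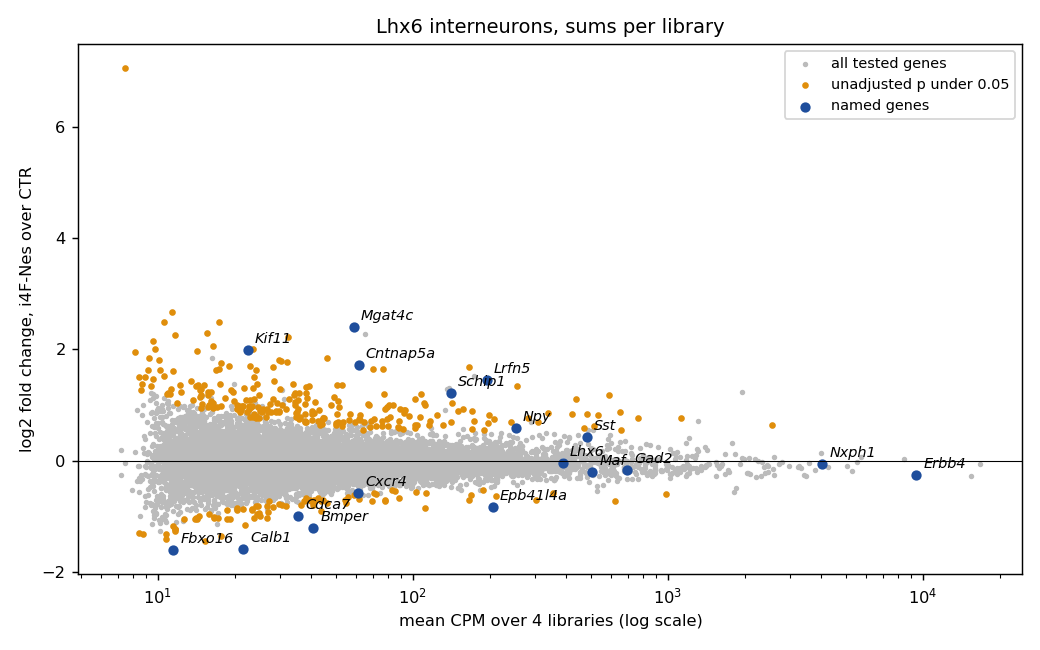
Log2 fold change, i4F-Nes over CTR, of every gene tested in Lhx6 interneurons against its mean CPM over the 4 libraries (log scale), with genes at an unadjusted p under 0.05 in orange and labelled genes in blue. The orange point at the top left is Gal. No gene passed after adjustment, named genes on the higher side reach 2.41 (Mgat4c) and on the lower side -1.61 (Fbxo16). The rule genes Lhx6 and Gad2 lie near 0.

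Genes of GABAergic identity were mostly a little lower in i4F-Nes, without a call. Of 20 listed genes 18 were tested, 15 with a negative log2 fold change and 3 with a positive one, and the median was -0.19, beside -0.01 over all tested genes, of which 47.6% were positive. None passed edgeR's threshold. The groups did not overlap for 6 lower genes, among them Gad2, Dlx6os1, Sp9 and Meis1, and for 1 higher gene, Npas1, out of 18, beside 15.8% of all tested genes higher and 12.4% lower. Dlx6os1 was at 536 and 497 CPM in i4F-Nes and 700.2 and 602 CPM in CTR. Gad1, the other GABA-synthesizing enzyme, was at 385 and 297 CPM in i4F-Nes and 429 and 338 CPM in CTR, where the groups overlapped. The rule required some of these genes, which bounds how far they could differ.

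Medial lineage genes had log2 fold changes on both sides of 0. Of 33 listed genes 23 were tested, 10 positive and 13 negative, with a median of -0.05. The transcription factors Maf (-0.20), Sox6 (-0.05), Satb1 (0.22) and Mef2c (-0.12) had log2 fold changes smaller than their standard errors of 0.26 to 0.29. The peptide gene Sst was at 618 and 501 CPM in i4F-Nes and 271 and 539 CPM in CTR, and the log2 fold change was 0.42 ± 0.32. Npy was at 347 and 267 CPM in i4F-Nes and 132 and 265 CPM in CTR, 0.58 ± 0.31 on the log2 scale (± SE from edgeR's F statistic). CTR replicate 1 was lowest for both peptides. Without it, the log2 fold changes of Sst and Npy were 0.02 and 0.18. Without CTR replicate 2 they were 1.05 and 1.23, and Npy then passed edgeR's quasi-likelihood test (adjusted p = 0.0286). Of 11 tested genes of neuropeptides and their processing, 10 were positive, with a median of 0.23. The groups did not overlap for 5 higher genes and 1 lower gene of the 11, beside 15.8% of all tested genes higher and 12.4% lower. The prohormone convertases Pcsk2 and Pcsk1, which cut peptide precursors, were singled out after their values were seen and did not overlap between groups: Pcsk2 was at 134 and 105 CPM in i4F-Nes and 71.3 and 57 CPM in CTR, and Pcsk1 at 28 and 27.7 CPM in i4F-Nes and 8.39 and 13 CPM in CTR. Their adjusted p in edgeR's test was 0.626 and 0.874.

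Migration receptors and cytoskeleton genes had fold changes on both sides of 0. Of 36 listed receptors and guidance genes 25 were tested, 14 positive and 11 negative, with a median of 0.22. The groups did not overlap for 11 higher and 3 lower genes of the 25, beside 15.8% of all tested genes higher and 12.4% lower. Plxna2, a semaphorin receptor, was at 434 and 599 CPM in i4F-Nes and 394 and 351 CPM in CTR, and Dcc, a netrin receptor, at 863 and 958 CPM in i4F-Nes and 689.7 and 767 CPM in CTR, with every i4F-Nes library above every CTR library. Epha5, an ephrin receptor, was among the lower ones, at 1464 and 1638 CPM in i4F-Nes and 2198 and 2104 CPM in CTR. Cxcr4 was not in either set and was measured at 32.4 and 71.2 CPM in i4F-Nes and 49.3 and 90.1 CPM in CTR, with overlap. Of 36 cytoskeleton genes 35 were tested, 12 positive and 23 negative, with a median of -0.09. The groups did not overlap for 5 higher and 7 lower genes of the 35, against the same shares over all genes of 15.8% and 12.4%. Of the 7 lower genes 5 were tubulins, among them Tubb2b at 3262 and 3082 CPM in i4F-Nes and 3387 and 4133 CPM in CTR and Tuba1a at 4805 and 5158 CPM in i4F-Nes and 5323 and 5857 CPM in CTR. Gap43, a growth cone protein singled out after its values were seen, was on the higher side at 154 and 202 CPM in i4F-Nes and 73.4 and 136 CPM in CTR. No migration gene passed edgeR's test.

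Ion channel genes leaned to the higher side. Of 25 listed genes 24 were tested, 21 with a positive and 3 with a negative log2 fold change, with a median of 0.25, and 8 were higher without overlap and 0 lower, beside 15.8% of all tested genes higher and 12.4% lower. The channel, receptor and synapse genes named next were singled out after their values were seen. Kcnq3, a subunit of the M-type potassium channel, was at 129 and 172 CPM in i4F-Nes, against 75.5 and 67.6 CPM in CTR. Its log2 fold change was 1.04 ± 0.24 (± SE from edgeR's F statistic, adjusted p = 0.505 in edgeR's quasi-likelihood test). Scn2a, a voltage-gated sodium channel, was at 35.8 and 63.3 CPM in i4F-Nes, against 18.9 and 20.5 CPM in CTR, and Cacna2d1, a calcium channel subunit, at 22.4 and 75.2 CPM in i4F-Nes, against 9.43 and 14.51 CPM in CTR. The groups did not overlap for these 3. Kcnq3 and Cacna2d1 stood higher in projection neurons, Kcnq3 at 855 and 482 CPM in i4F-Nes and 691 and 521 CPM in CTR. Of 23 tested receptor genes 16 were positive and 7 negative, with a median of 0.16, 7 higher and 2 lower without overlap (15.8% and 12.4% over all tested genes). The AMPA receptor subunit Gria3 was at 47 and 39.6 CPM in i4F-Nes and 13.6 and 20.02 CPM in CTR, and the NMDA receptor subunit Grin3a at 34.7 and 45.5 CPM in i4F-Nes and 16.8 and 20.02 CPM in CTR. Slc12a5, the chloride exporter that makes GABA inhibitory in mature neurons, was at 16.8 and 41.5 CPM in i4F-Nes and 12.6 and 14.51 CPM in CTR. Of 33 tested synapse and adhesion genes 20 were positive and 13 negative, with a median of 0.09, 10 higher and 1 lower without overlap (15.8% and 12.4% over all tested genes). Cntnap2, an axonal neurexin family protein, was at 494 and 1142 CPM in i4F-Nes and 374 and 343 CPM in CTR, with i4F-Nes replicate 2 far above the rest. None of these genes passed edgeR's threshold.

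Cell cycle genes had the highest median of the lists plotted, and for the genes examined single cells held a large part of the sums. For Mki67 in i4F-Nes replicate 2 the top cell held 46.7% of the UMIs, and 9 cells had at least 1. Of 40 listed cell cycle genes 22 were tested, 18 positive and 4 negative, with a median of 0.71, and 13 were higher and 2 lower without overlap, beside 15.8% of all tested genes higher and 12.4% lower. Top2a was at 61.5 and 83.1 CPM in i4F-Nes and 34.6 and 22 CPM in CTR, Mki67 at 82.8 and 29.7 CPM in i4F-Nes and 17.8 and 26 CPM in CTR and Cenpf at 83.9 and 55.4 CPM in i4F-Nes and 26.2 and 38 CPM in CTR. Without the 1 cell with the most UMIs of the gene in each library the levels were 9.36 and 4.17 CPM in i4F-Nes and 4.34 and 9.68 CPM in CTR for Top2a, 5.85 and 16.7 CPM in i4F-Nes and 8.67 and 13.8 CPM in CTR for Mki67 and 4.68 and 4.17 CPM in i4F-Nes and 1.08 and 8.15 CPM in CTR for Cenpf. The groups then overlapped for all 3 of these genes. The share of cells with at least 3 mitotic genes was 2.00% and 1.59% in i4F-Nes and 1.61% and 1.09% in CTR, from 1 to 3 cells a library.

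Most reprogramming and pluripotency genes and the genes of the cell population found in i4F-Nes libraries were at or near 0. Pou5f1 had 1 and 1 UMIs in i4F-Nes and 1 and 5 UMIs in CTR over all Lhx6 interneurons. Nanog and 13 more of 25 reprogramming and pluripotency genes were at 0 in all 4 sums, and Cytl1 and Lbhd2 were at 0. Of this list 5 genes were tested, 2 positive and 3 negative, with a median of -0.02. The groups did not overlap for 1 higher gene of the 5, Lin28b, and 1 lower gene, Sox2, beside 15.8% of all tested genes higher and 12.4% lower. Lin28b, an RNA-binding protein of early progenitors, was at 59.3 and 51.4 CPM in i4F-Nes and 38.8 and 27.5 CPM in CTR. Its log2 fold change of 0.76 ± 0.29 did not pass edgeR's test after adjustment. Myc was at 14.54 and 5.94 CPM in i4F-Nes and 19.9 and 8.51 CPM in CTR, Klf4 at 10.1 and 1.98 CPM in i4F-Nes and 5.24 and 5.5 CPM in CTR and Sox2, which interneurons express on their own, at 199 and 186 CPM in i4F-Nes and 243 and 221 CPM in CTR. The list of 15 genes of the i4F-Nes population summed to 54.8 and 19.8 CPM in i4F-Nes and 12.6 and 7.51 CPM in CTR, none of them abundant enough to test. The rule removes cells with 2 or more UMIs of Krt8, Cytl1 and Lbhd2. Of 10 tested p53 target genes 4 were positive and 6 negative, with a median of -0.23. The groups did not overlap for 1 lower gene and 0 higher genes of the 10, beside 12.4% of all tested genes lower and 15.8% higher. That gene, Rrm2b, a p53-induced ribonucleotide reductase subunit singled out after its values were seen, was at 10.1 and 7.91 CPM in i4F-Nes and 19.9 and 18 CPM in CTR. Immediate early genes had a median of 0.03 over 13 tested genes. Fos was at 374 and 75.2 CPM in i4F-Nes and 307 and 191 CPM in CTR, high in replicate 1 of both groups. Of 18 glycolysis and hypoxia genes 8 were positive and 10 negative with a median of -0.01, and of 12 unfolded protein response genes 5 were positive and 7 negative with a median of -0.02. Of 8 tested caudal eminence genes 4 were positive and 4 negative (median 0.10), and likewise 4 and 4 of 8 striatal genes (median 0.02). Of 15 radial glia genes 11 were positive and 4 negative (median 0.28). The few tested Cajal-Retzius (3), interferon (2) and microglia, vessel, oligodendrocyte precursor and blood genes (1) were positive.

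**Figure D5:**
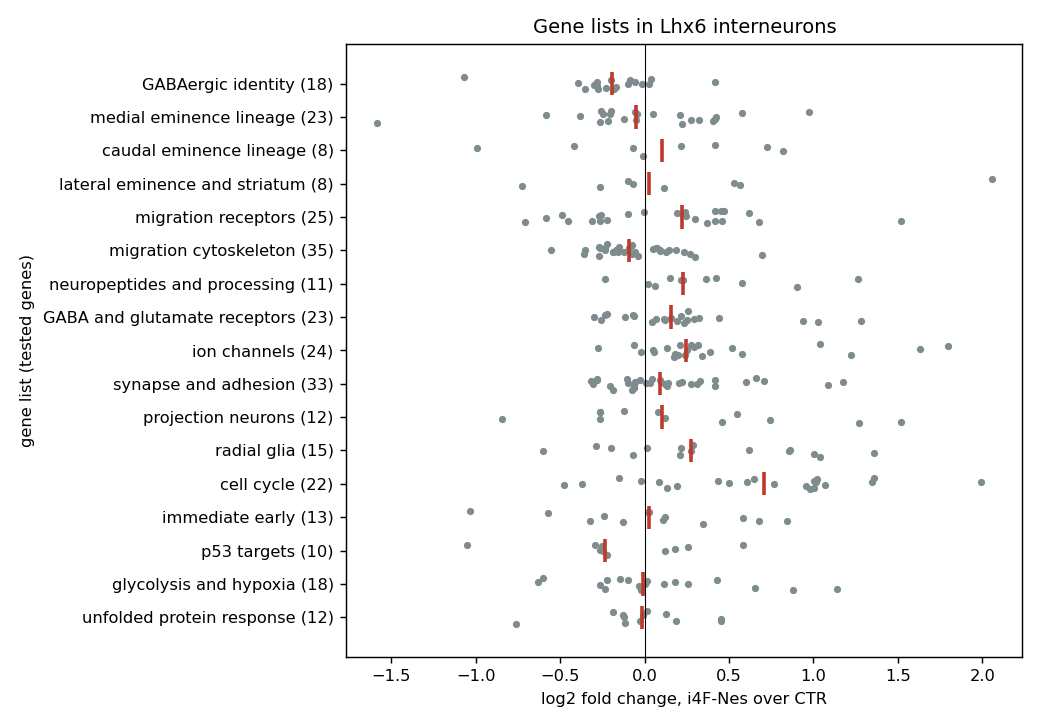
Log2 fold changes, i4F-Nes over CTR, of the tested genes of each list in Lhx6 interneurons (grey points, with the number tested in parentheses) and the median of each list (red bars). Medians run from -0.23 (p53 targets) to 0.71 (cell cycle), and the points of most lists spread to both sides of 0.

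Whether the i4F-Nes effect in Lhx6 interneurons differed from that in projection neurons was tested by the cell type by group term of a model that also held the library. edgeR's quasi-likelihood test called 30 of 16158 genes (0.186%), 19 with a more positive effect in Lhx6 interneurons (0.118%) and 11 with a more negative one (0.0681%). A limma fit on the difference of log2 CPM between the 2 cell types in each library, which uses 4 values per gene, called 1 of 9084 genes. That gene, Gal (galanin, a neuropeptide), was at 17.9 and 11.9 CPM in i4F-Nes and 0 and 0 CPM in CTR, with UMIs in 2 and 1 cells in i4F-Nes. The count was 66 without i4F-Nes replicate 1, 4 without i4F-Nes replicate 2, 35 without CTR replicate 1 and 81 without CTR replicate 2. Within projection neurons alone, edgeR's test called 0 of 17437 genes (0%), with 341 at an unadjusted p under 0.05 (1.96%), and DESeq2 called 43.

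The 3 negative interactions with the lowest p were those of Calb1, Nrxn3 and Nxph1. In projection neurons each of them was higher in both i4F-Nes libraries than in either CTR library, at a level below that in Lhx6 interneurons. Calb1 was at 1.41 and 5.4 CPM in i4F-Nes and 0.268 and 0.294 CPM in CTR in projection neurons, while in Lhx6 interneurons it was lower in i4F-Nes, and the effects differed by -4.84 ± 0.66 on the log2 scale (SE; edgeR's quasi-likelihood adjusted p = 3.34e-09; limma on differences, adjusted p = 0.054). Nrxn3 was at 62.1 and 120.4 CPM in i4F-Nes and 23.1 and 22.2 CPM in CTR in projection neurons, a difference of effects of -2.19 ± 0.31 (edgeR adjusted p = 2.07e-08, limma 0.821). Nxph1, given for both classes with the markers, differed by -1.77 ± 0.28 (edgeR adjusted p = 1.45e-06, limma adjusted p = 0.998). The level in projection neurons was highest in i4F-Nes replicate 2 for these 3 genes. Nrxn3 and Nxph1 are abundant in Lhx6 interneurons, whereas Calb1 was detected in few of them. Neither Nrxn3 nor Nxph1 passed edgeR's test without i4F-Nes replicate 2, without CTR replicate 1 or without CTR replicate 2. Whether UMIs of free RNA contributed was not tested.

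Of the positive interactions, Kcnq5, an M-type potassium channel subunit, was at 54.8 and 168 CPM in i4F-Nes and 4.19 and 32.5 CPM in CTR in Lhx6 interneurons. In projection neurons it was at 504 and 875 CPM in i4F-Nes and 254 and 682 CPM in CTR, and its effects differed by 1.91 ± 0.31 (edgeR adjusted p = 1.51e-06, limma 0.998). In Lhx6 interneurons CTR replicate 1 held 4 Kcnq5 UMIs, and 1 cell held 40% of those in CTR replicate 2. Without the top cell of each library Kcnq5 was measured at 36.6 and 134 CPM in i4F-Nes and 3.17 and 19.6 CPM in CTR. Mgat4c was at 62.9 and 87.2 CPM in i4F-Nes and 51.1 and 58.3 CPM in CTR in projection neurons, and its effects differed by 1.95 ± 0.29 (edgeR adjusted p = 1.72e-07, limma 0.803). Vim, an intermediate filament gene of progenitors, was at 164 and 219.6 CPM in i4F-Nes and 113 and 73.1 CPM in CTR in Lhx6 interneurons, with a difference of effects of 1.41 ± 0.23 (edgeR adjusted p = 1.45e-06, limma 0.998). Of the 111 Vim UMIs of i4F-Nes replicate 2, 105 came from 1 cell. Without the top cell of each library Vim was measured at 92.4 and 12.5 CPM in i4F-Nes and 58.8 and 43.6 CPM in CTR, and the groups overlapped.

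Against the other GABAergic cells, the closest class, 0 of 8339 genes (0%) showed a different i4F-Nes effect in edgeR's quasi-likelihood test, with 261 at an unadjusted p under 0.05 (3.13%), and limma on differences also called 0. Leaving out i4F-Nes replicate 1 gave 38 calls and leaving out i4F-Nes replicate 2 gave 37, while leaving out either CTR library gave 0. In the other GABAergic cells themselves edgeR's test called 1 of 5558 genes (0.018%), Zic1, a zinc finger transcription factor, at 93.6 and 112 CPM in i4F-Nes and 0 and 0 CPM in CTR. In Lhx6 interneurons Zic1 was at 4.47 and 0 CPM in i4F-Nes and 0 and 1.5 CPM in CTR.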

How the data were processed

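Single-cell 3′ libraries of rostral neocortex, 2 i4F-Nes and 2 CTR, were deposited as UMI counts per gene and barcode. The authors' matrices came from cellranger 7.0.1, per the file headers, with mm10 named in the submitters' processing notes. No count had been normalised. The 561 Lhx6 interneurons and the gene lists (23 lists, 526 of 527 genes found) were chosen with earlier results of these data known. Counts were summed per library over each class; CPM are UMIs per 1000000 of that sum. Sums were tested with edgeR 4.0.16 (R 4.3.3; TMM, filterByExpr, quasi-likelihood F-test, Benjamini-Hochberg at 0.05), with DESeq2 1.42.0, limma 3.58.1 and other settings as alternatives. Shares used exact permutation tests and exact binomial 95% intervals (scipy 1.17.1), which cover counting error only. Doublets stayed in the main values, and the highest Scrublet scores (scanpy 1.11.5) were removed in an alternative. Library totals of 94052724 to 153706503 UMIs gave 505454 to 1998268 UMIs in Lhx6 interneurons, so genes of a few CPM rest on single UMIs. Named genes were the 5 with the lowest p in each direction at a mean of at least 10 CPM, up to 8 genes of each list (by mean CPM), the 10 with the most extreme ratio to each other class, the rule's own genes, and 5 per direction of each interaction. Genes outside this rule are named as non-overlapping members of a list or as singled out after their values were seen. The scripts were tested on simulated data. Some genes are not reported here.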

Additional observations from a re-analysis of the deposited data

Results flagged for a closer look

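Of the 30 genes called, the 5 with the lowest p in each direction are given. For these 10 genes the i4F-Nes effect differed between Lhx6 interneurons and projection neurons in edgeR's test of that difference (log2 scale, Lhx6 interneurons minus projection neurons). None of the 10 passed with limma on the per-library differences, so the calls depend on the model, and most of them on single libraries. Over 70 alternatives of these 10 interactions 46 kept the call and 24 lost it with the same direction, 10 with limma and the other 14 with 1 library left out. Calb1 was the 1 gene that kept its call in edgeR without each library in turn. Snhg11 was at 71.6 and 144 CPM in i4F-Nes and 63.9 and 41.5 CPM in CTR in Lhx6 interneurons. In projection neurons Snhg11 was at 1.45 and 0.604 CPM in i4F-Nes and 3.12 and 3.02 CPM in CTR. The effects differed by 2.53 ± 0.38 (SE, edgeR's quasi-likelihood adjusted p = 1.72e-07, limma adjusted p = 0.998). Hs6st3, a heparan sulfate sulfotransferase gene, was at 20.1 and 17.8 CPM in i4F-Nes and 6.29 and 1.00 CPM in CTR in Lhx6 interneurons. These were 18 and 9 UMIs from 6 and 3 cells in i4F-Nes and 6 and 2 UMIs from 3 and 2 cells in CTR. Without the top cell of each library it was measured at 13.5 and 6.16 CPM in i4F-Nes and 2.12 and 0.502 CPM in CTR. In projection neurons it was at 50.3 and 70.8 CPM in i4F-Nes and 49.5 and 79.4 CPM in CTR. The effects differed by 3.03 ± 0.53 (SE, edgeR's quasi-likelihood adjusted p = 2.68e-05, limma adjusted p = 0.998). C130073E24Rik was at 158 and 152 CPM in i4F-Nes and 247 and 196 CPM in CTR in Lhx6 interneurons and at 1.05 and 2.15 CPM in i4F-Nes and 0.715 and 0.627 CPM in CTR in projection neurons, and the effects differed by -1.65 ± 0.27 (SE; edgeR's quasi-likelihood adjusted p = 2.66e-06; limma adjusted p = 0.998). Slit3, a secreted guidance ligand, was at 45.9 and 21.8 CPM in i4F-Nes and 19.9 and 7.51 CPM in CTR in Lhx6 interneurons. These UMIs came from 12 and 5 cells in i4F-Nes and 7 and 4 in CTR. The top cell held 43.9% of them in i4F-Nes replicate 1 and 60% in CTR replicate 2. Without the top cell of each library Slit3 was measured at 26 and 14 CPM in i4F-Nes and 12.7 and 3.01 CPM in CTR. In projection neurons Slit3 was at 17.4 and 18.6 CPM in i4F-Nes and 2.39 and 0.665 CPM in CTR. The effects differed by -2.27 ± 0.46 (SE, edgeR's quasi-likelihood adjusted p = 0.0011, limma adjusted p = 0.803). The 6 described with the results were Mgat4c (1.95 ± 0.29), Vim (1.41 ± 0.23), Kcnq5 (1.91 ± 0.31), Calb1 (-4.84 ± 0.66), Nrxn3 (-2.19 ± 0.31) and Nxph1 (-1.77 ± 0.28).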

How the results depend on the processing

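With 2 libraries per group, the exact test of a share cannot go under 0.333, and the number of calls changed with single libraries. The ratio of shares stayed under 1 in 12 of 12 alternatives for kept barcodes (0.280 to 0.557; 0.413 with the Krt8, Cytl1 and Lbhd2 population out of the denominator, an alternative chosen after seeing the data) and in 11 of 11 per projection neuron (0.329 to 0.677). The share of GABAergic cells turned from 1.02 to 0.959 with the rule on thinned barcodes, 0.998 with Neurod6 at 0 UMIs, 0.969 with at least 2000 UMIs and at most 5% mitochondrial UMIs, 0.975 with no Krt8, Cytl1 and Lbhd2 limit, and 0.874 to 1.16 with 1 library left out. Calls in Lhx6 interneurons numbered 0 with RLE size factors and under 6 other cell rules, 2 with DESeq2, 30 with no filter on low counts and 3 to 79 with 1 library left out. In the other GABAergic cells they numbered 30 with no filter and 1 to 173 with 1 library left out. In projection neurons they numbered 43 with DESeq2, 1 with no filter and 7 to 155 with 1 library left out. The interaction with projection neurons gave 30 calls, 1 with limma (chosen after seeing the data) and 4 to 81 with 1 library left out. The interaction with the other GABAergic cells gave 3 with no filter and 0 to 38 with 1 library left out. Over 239 alternatives of single genes in Lhx6 interneurons 204 kept their direction and side of the threshold, 25 passed it and 10 turned in sign. These were Lhx6 (-0.14 to 0.085 with 1 library left out), Dlx1 (0.029 with doublets removed, -0.070 to 0.078 with 1 library left out), Nxph1 (-0.28 to 0.22), Sox6 (-0.23 to 0.17), Maf (-0.51 to 0.23) and Cxcr4 (-1.22 to 0.015), the last 4 also with 1 library left out. The causes were not tested.

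The groups share replicate numbers, but no label says that a number marks a shared litter or day. Deviations of same-numbered libraries correlated at r = 0.236 over genes in Lhx6 interneurons, 0.114 in the other GABAergic cells and 0.568 in projection neurons, with only 2 pairs. With the replicate number as a block, edgeR's test called 9 genes in Lhx6 interneurons, 11 in the other GABAergic cells and 200 in projection neurons.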
